A study of Linum usitatissimum with 8 samples.

Results

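The genes described here are 106 flax seed genes whose level fell at least 2-fold at each of the 3 steps between 4 stages of seed development. They were chosen from 38306 genes with annotated Lus IDs in a table of 40518 rows. A gene was taken when its mean at the earliest stage, DAP5, was at least 50 CPM, where CPM stands for counts per 1000000 counts of the library. Its mean then had to fall 2 to 8-fold from DAP5 to DAP10, 2 to 8-fold from DAP10 to DAP20, and at least 2-fold from DAP20 to DAP30. All 106 genes that met these limits were kept, and the stage means that chose them are given below as a description.

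RNA was sequenced from seeds of Linum usitatissimum, cultivar Heiya No.14, in 8 libraries. The groups were DAP5, DAP10, DAP20 and DAP30, with 2 libraries each. The labels give no treatment or genotype beyond the cultivar and do not spell out the stage names. They do not say whether the libraries of a stage are from separate plants, and the spread between these may be technical. Library totals ran from 12951493 to 27691831 counts, and the deepest libraries were those of DAP5.

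A young flax seed holds a small embryo and a growing endosperm inside a seed coat that is still expanding. The embryo later fills most of the seed and stores oil and protein, and the seed then dries. A seed extract mixes all of these tissues, so fewer cells of a type and less RNA per cell cannot be told apart. The deposited table does not pair its IDs with gene names, and no annotation was used here. The functions of the 106 genes are therefore not given, and the labelled tissue could not be checked against marker genes.

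The limits were applied in order. Of the 4882 Lus genes with a DAP5 mean of at least 50 CPM, 1126 fell at least 2-fold from DAP5 to DAP10, and 976 of these fell by no more than 8-fold. Of the 976, 342 also fell 2 to 8-fold from DAP10 to DAP20. The last step kept 106 of the 342, which is 2.17% of the well-expressed genes. Among the other 236, the mean rose again from DAP20 to DAP30 in 101 and otherwise fell by less than 2-fold. The upper limits also shaped the count, since 259 of the well-expressed genes fell at least 2-fold at every step when no upper limit was set.

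The limits cut through a continuous range of profiles. The member with the lowest DAP5 mean stood at 50.11 CPM, and the next gene below the limit, which met all other limits, at 49.15 CPM. The member with the smallest fall in the last step fell 2.002-fold, and the nearest gene outside fell 1.998-fold. At the upper limit of the first step the nearest values were 7.789-fold inside and 8.109-fold outside. The DAP5 limit alone kept out 546 genes, the lower limit of the first step 203, the upper limit of the second step 100, and the lower limit of the second step 72.

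As a group the 106 genes went from a visible part of the seed transcriptome to a trace. They held 1.85% and 1.64% of all counts in the 2 DAP5 libraries, 0.569% and 0.58% at DAP10, 0.186% and 0.114% at DAP20, then 0.0392% and 0.0362% at DAP30. No library of a later stage overlapped with one of an earlier stage, and as a ratio the 2 libraries of a stage stood farthest apart at DAP20. The counts were unevenly spread over the genes. The 5 genes highest at DAP5 made up 31.3% of the group's summed mean CPM at DAP5, 28% at DAP10, then 23.5% at DAP20 and 29.1% at DAP30.

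**Figure D1:**
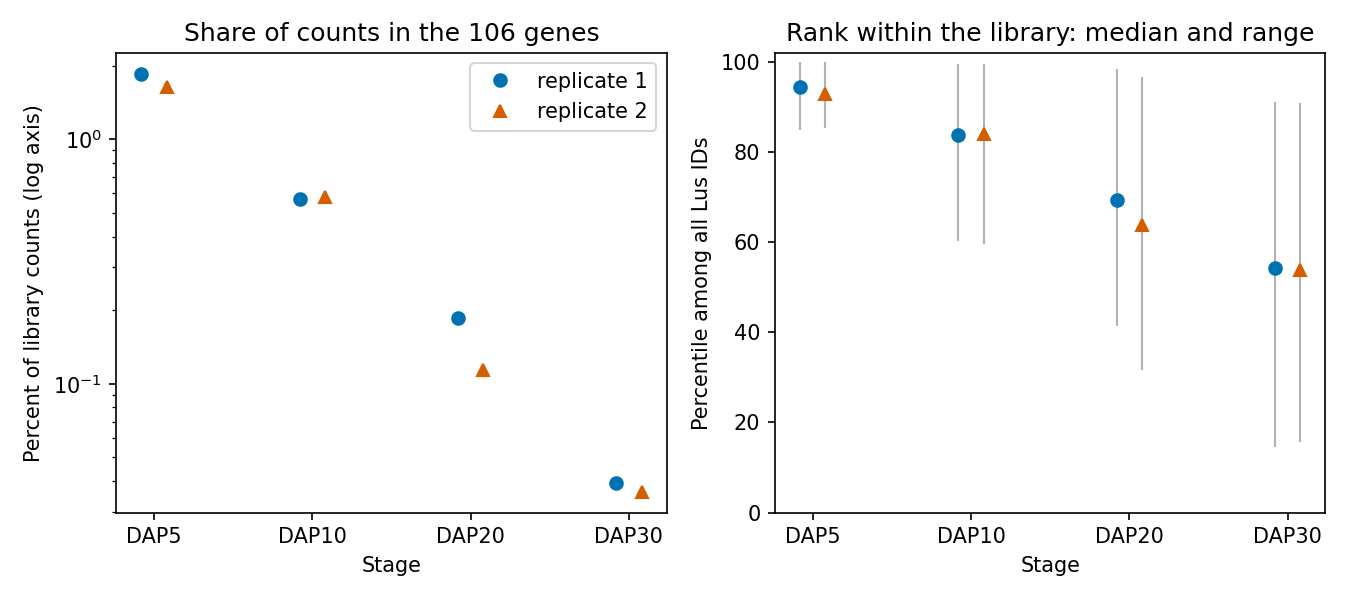
Left, the percent of each library's counts that fell on the 106 genes, on a log axis, by stage and replicate. Right, the median percentile of the 106 genes among all Lus IDs within each library, with vertical lines from the lowest to the highest gene. The share went from 1.85% and 1.64% at DAP5 to 0.0392% and 0.0362% at DAP30, and the median percentile from 94.4 and 92.9 to 54.3 and 53.9.

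The median gene of the group had a stage mean of 87.7 CPM at DAP5, 31.8 at DAP10, then 9.61 at DAP20 and 2.19 at DAP30. The stage means ranged from 50.1 to 1292 CPM at DAP5 and from 0 to 51.4 CPM at DAP30. Per kilobase of the deposited gene length, the median level was 44.3 RPKM at DAP5 and 0.87 RPKM at DAP30, and the DAP5 levels ran from 6.08 to 731 RPKM. At DAP30, 74 of the 106 genes still had at least 1 CPM in both libraries. A further 26 were below 1 CPM in both, and 2 had no count in either DAP30 library.

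**Figure D2:**
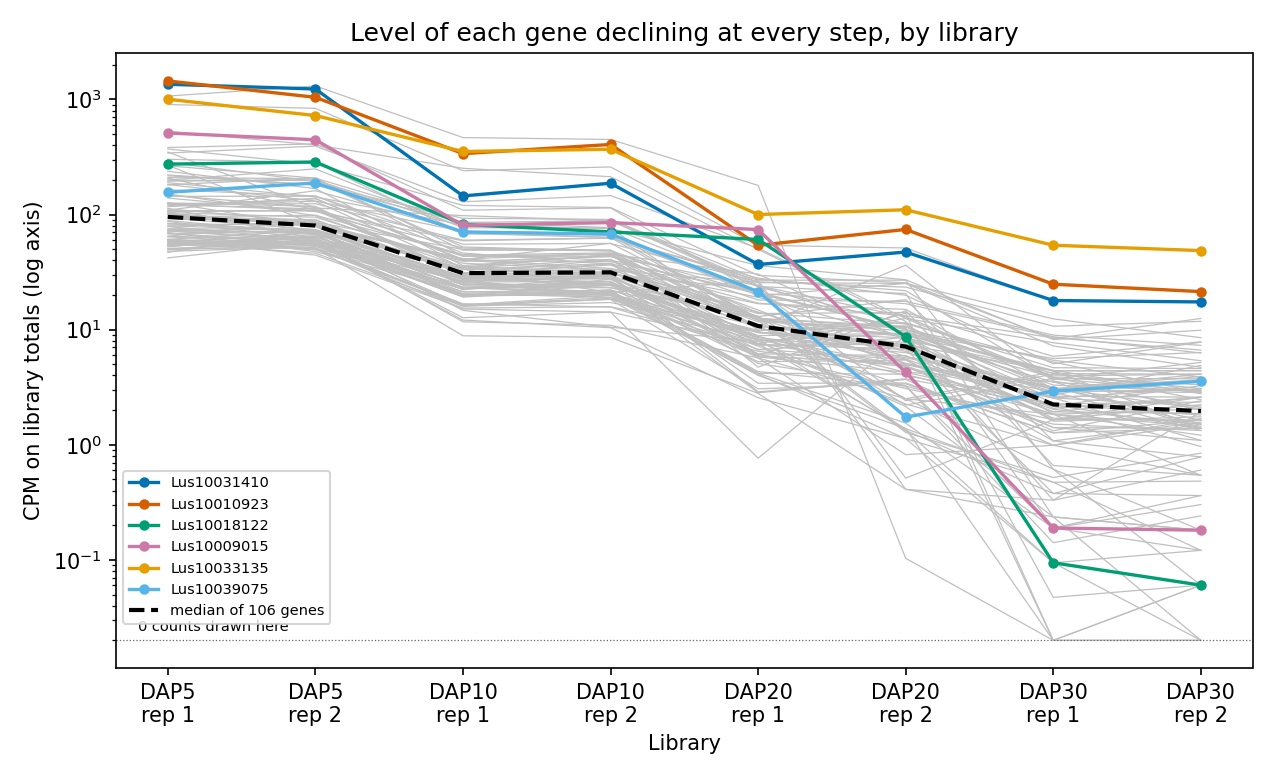
Level of each of the 106 genes in each of the 8 libraries, in CPM on a log axis, with 0 counts drawn at the dotted line and points joined only to guide the eye. The dashed line is the median of the 106 genes, and the coloured lines are 6 genes described in the text. The lines keep together at DAP5 and DAP10 and spread at DAP20 replicate 2 and DAP30.

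The limits at each step fixed a deep decline over the whole span in every gene, so its depth is given as a description. From DAP5 to DAP30 the ratio of means on library totals was 42.8 in the median gene. It was 11.3 in the gene that fell least, and 28 genes fell more than 100-fold. The median fall was 2.82-fold from DAP5 to DAP10, with quartiles of 2.31 and 3.41. It was 3.68-fold from DAP10 to DAP20, with quartiles of 2.69 and 5.07. From DAP20 to DAP30 it was again 3.68-fold, with quartiles of 2.67 and 7.27, and here the limits allowed any larger fall. Divided by the difference between the stage numbers, the median fall on library totals was 0.299 log2 units per DAP unit in the first step and 0.188 in both later steps. Under TMM, a scaling described below, the median log2 falls were 1.12, 1.49 and 1.78, so the later steps were not equal there. The median fitted log2 fold change from DAP5 to DAP30 was -4.55 (edgeR, TMM), a smaller fall than on library totals.

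Within the group the step of the largest fall differed from gene to gene. It was the first step in 11 genes, the second in 40 and the last in 55. In 25 genes the 3 ratios lay within 1.5 times of each other, and in 53 within 2 times. This describes similar falls per step and not per DAP unit. Across the genes, Spearman's rho between the log2 falls was 0.03 for the first and second steps (n = 106), -0.07 for the second and last (n = 104) and 0.20 for the first and last (n = 104). The rule limited the first 2 falls to between 2 and 8-fold, neighbouring falls share a stage, and genes are not independent replicates, so nothing is read from these values.

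**Figure D3:**
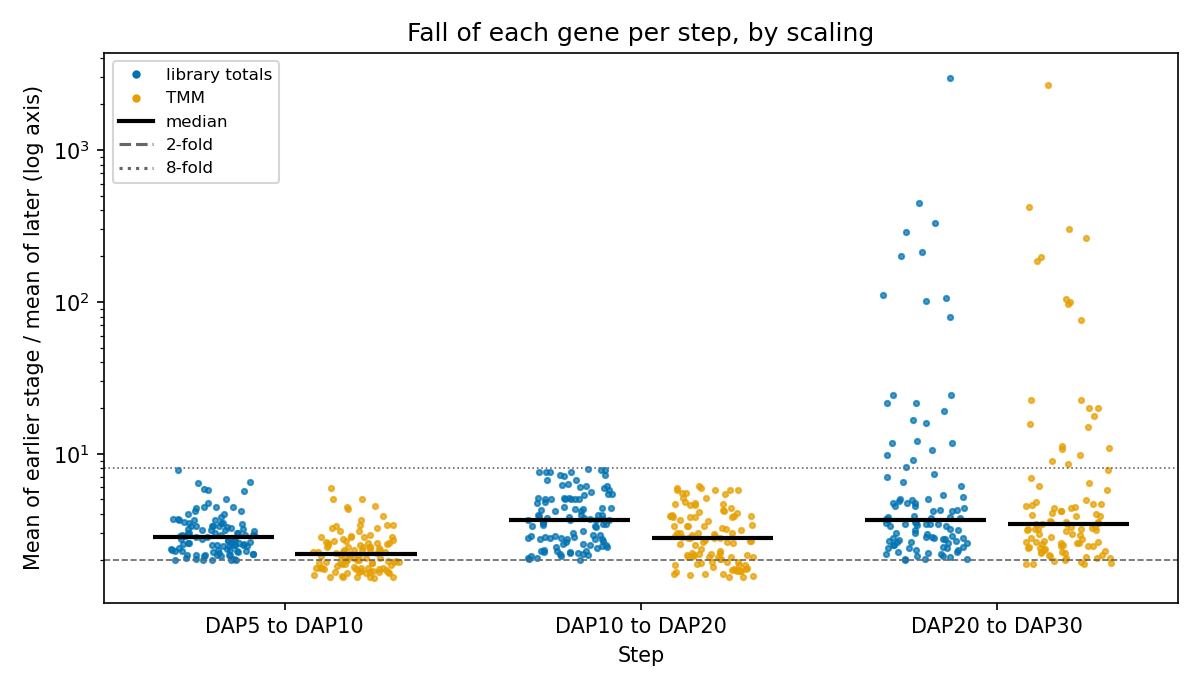
Ratio of the mean of the earlier stage to that of the later stage for each of the 106 genes and each step, on a log axis. Blue points use library totals, orange points use TMM scaling, black bars are medians, and the dashed and dotted lines mark 2-fold and 8-fold. Genes with no count at DAP30 have no point in the last step. The medians on library totals are 2.82, 3.68 and 3.68, and on TMM 2.17, 2.80 and 3.45.

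The scaling of the libraries moved these falls. CPM divides by the library total, whereas TMM, the scaling used by edgeR, assumes that most genes are unchanged. The median log2 fall over all 28749 genes tested was 0.40, 0.43 and 0.17 at the 3 steps on library totals, and 0.02, 0.04 and 0.07 on TMM. The median log2 fall of the 106 genes exceeded that of all genes tested by 1.10, 1.45 and 1.71 under either scaling. Scaling changes all genes of a library by the same factor, so this excess hardly depends on it. The limits required a fall of at least 2-fold at each step, so nothing is read from the excess. Under TMM all 106 genes still had lower means at every step, but the first fall reached 2-fold in 61, the second in 81 and the last in 99. All 3 falls reached 2-fold in 45 genes. The full rule applied to TMM levels took 46 genes, of which 31 were among the 106.

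The rank of a gene within its library does not depend on scaling. The ranks come from the same levels that chose the genes and are given as a description. The median percentile of the group among the Lus IDs was 94.4 and 92.9 in the DAP5 libraries, 83.7 and 84.1 at DAP10, 69.3 and 63.8 at DAP20, then 54.3 and 53.9 at DAP30. The ranks in both libraries of a stage lay above both of the next stage in 105 genes at the first step, 102 at the second and 91 at the last. Over all Lus genes tested the shares were 37.6%, 38% and 27.7%. The ranks fell in this way at every step in 88 of the 106 genes. The share over all genes was not taken for this last count, so nothing is read from it.

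Levels in single libraries separated the stages in most of the genes. Both DAP5 libraries were above both DAP10 libraries in 106 genes (55.6% of all genes tested), both DAP10 above both DAP20 in 105 (52.3%), and both DAP20 above both DAP30 in 98 (36%). All 3 steps separated in 98 genes (11.7% of all genes tested). In edgeR's quasi-likelihood test with a false discovery rate (FDR) below 0.05, adjusted over all 28749 genes, 64 members were called lower at DAP10 than at DAP5 (11.2% of all genes), 87 at DAP20 than at DAP10 (27.8%) and 95 at DAP30 than at DAP20 (17.4%). In all 3 steps 57 members were called (0.884%), and in no step 5. From DAP5 to DAP30 all 106 were called lower (38.9%), and all 106 in the joint test over the stages (79%). The choice of the genes used these same contrasts, so nothing is read from the counts. Leaving out 1 library moved these counts, most of all for DAP5 to DAP10. Where that left a stage with 1 library, the fit took its spread from the other stages. The share of all genes called was not taken in those fits, so their counts are not given.

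The most abundant member, Lus10031410.g.BGIv1.0, lost most of its level in the first step. It stood at 1354 and 1231 CPM in the DAP5 libraries, 145 and 187 at DAP10, 36.8 and 47.2 at DAP20, then 17.9 and 17.4 at DAP30. The stages did not overlap, and as a ratio the replicates were closer at DAP5 and DAP30 than at DAP10 and DAP20. The ratios of means were 7.79, 3.95 and 2.38, so each fall was smaller than the one before. The fitted log2 fold change over the whole span was -5.32 ± 0.25 (SE, edgeR, TMM). With 731 RPKM at DAP5 it also had the highest level per kilobase in the group.

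Lus10010923.g.BGIv1.0, the next by DAP5 mean, fell most in the second step. It was at 1446 and 1043 CPM in the DAP5 libraries, 338 and 406 at DAP10, 54.0 and 74.2 at DAP20, then 24.8 and 21.4 at DAP30. No stage overlapped with another. The ratios of means were 3.34, 5.81 and 2.78, and the fitted log2 fold change over the span was -4.89 ± 0.30 (SE, edgeR, TMM). It also had the second highest mean at DAP30, so it was among the members highest at both ends of the series.

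The highest level at DAP30 was that of Lus10033135.g.BGIv1.0, whose 3 ratios lay within 2 times of each other but not within 1.5 times. It was at 1003 and 724 CPM in the DAP5 libraries, 353 and 369 at DAP10, 100 and 110 at DAP20, then 54.1 and 48.6 at DAP30. The stages did not overlap, and outside DAP5 the replicates were nearly equal. The ratios of means were 2.39, 3.45 and 2.04, the first and last of them close to the lower limit of the choice. Under TMM they were 1.84, 2.62 and 1.91, so this gene met the 2-fold limit at the second step alone. Per kilobase it held 16.7 RPKM at DAP30, the highest of the group.

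At the other end, Lus10018122.g.BGIv1.0 was almost lost at DAP30. It was at 274 and 286 CPM in the DAP5 libraries, 82.0 and 70.6 at DAP10, 60.7 and 8.67 at DAP20, then 0.0943 and 0.0603 at DAP30. The DAP30 values are 2 counts and 1 count. From DAP20 to DAP30 the summed counts fell 458-fold per library total (95% interval 157 to 2225, exact binomial, counting error only). At DAP20 replicate 1 lay near the DAP10 libraries, whereas replicate 2 lay far below them. Without DAP20 replicate 2 its fitted log2 fold change from DAP10 to DAP20 was 0.04, and without replicate 1 it was -2.74. With both it was -0.75 ± 0.68 (SE, edgeR, TMM).

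Lus10009015.g.BGIv1.0 had the same shape. It was at 511 and 446 CPM in the DAP5 libraries, 80.5 and 85.1 at DAP10, 74.0 and 4.26 at DAP20, then 0.189 and 0.181 at DAP30, the last from 4 and 3 counts. Its DAP20 replicates differed 17.4-fold, the widest gap of any member with at least 20 counts in both libraries of a stage. From DAP20 to DAP30 the summed counts fell 224-fold per library total (95% interval 108 to 557, exact binomial, counting error only). This interval leaves out the gap between the DAP20 libraries. From DAP10 to DAP20 the fitted log2 fold change of the gene was -0.70 ± 0.93 (SE, edgeR, TMM) with both libraries. It was 0.21 without DAP20 replicate 2 and -3.88 without replicate 1.

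In Lus10039075.g.BGIv1.0 the 2 DAP20 libraries lay on either side of DAP30. It was at 156 and 188 CPM in the DAP5 libraries, 70.6 and 67.7 at DAP10, 21.4 and 1.74 at DAP20, then 2.92 and 3.56 at DAP30. Its DAP20 replicates differed 12.3-fold. From DAP20 to DAP30 the fitted log2 fold change was -1.73 with both libraries, -2.61 without DAP20 replicate 2 and 0.97 without replicate 1. A decline at every step was thus present in replicate 1 and not in replicate 2, where the gene was lowest at DAP20.

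The 2 libraries of a stage differed most often in one direction at DAP20. The rule used their mean, so a gene could pass through the library in which it was high, and 66 of the 106 genes still met the rule without DAP20 replicate 1 and 79 without replicate 2. At DAP20 84 of the 106 genes were higher in replicate 1, 40 of them by more than 2-fold, and 4 were more than 2-fold higher in replicate 2. The median gene was 1.36-fold higher in replicate 1. At DAP10 the replicates were close, with 50 genes higher in replicate 1, 56 in replicate 2 and none apart by more than 2-fold. At DAP5 68 genes were higher in replicate 1, by 1.09-fold in the median gene, and at DAP30 61 of 104 genes with a count were. Under TMM the numbers higher in replicate 1 were 82 at DAP20, 51 at DAP10, 81 at DAP5 and 48 of 104 at DAP30, so the majority at DAP30 turned with the scaling.

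The DAP20 gap was shared with other genes that were falling around this stage. Of the 4740 other well-expressed Lus genes with a value, 58.4% were higher in DAP20 replicate 1 and 7.49% by more than 2-fold, against 79.2% and 37.7% of the 106 genes. Another 227 of these genes met the same limits for the second and last steps but not for the first. Of them 76.7% were higher in replicate 1 and 34.8% by more than 2-fold, near the shares of the 106. Of the 2786 whose ratios in both later steps were under 2, the shares were 52.3% and 0.861%. The sets of 227 and 2786 genes were sorted by ratios that contain the DAP20 libraries, as were the 106. Their shares are therefore not independent of the sorting. These shares compare 1 library with 1 library, and no test was made.

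**Figure D4:**
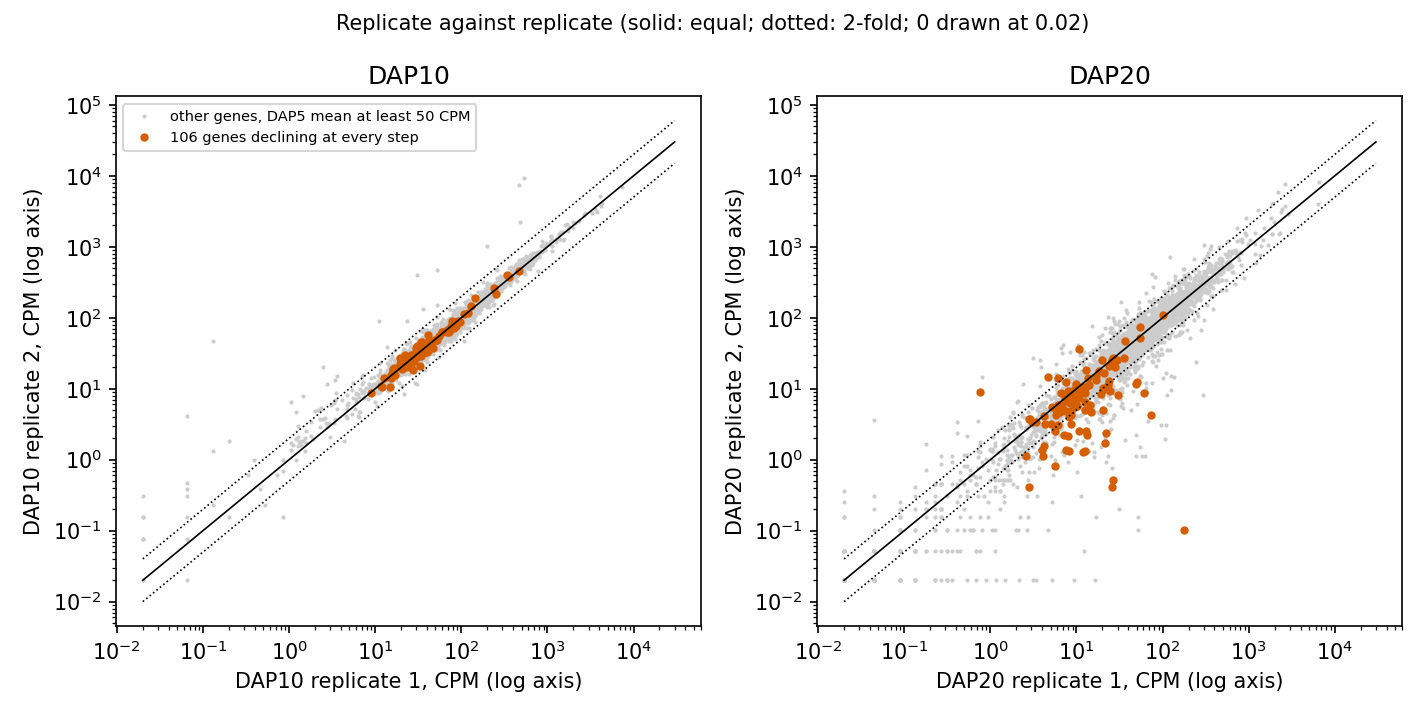
Level in replicate 2 against replicate 1 at DAP10 (left) and DAP20 (right), in CPM on log axes. Orange points are the 106 genes, grey points the other Lus genes with a DAP5 mean of at least 50 CPM, the solid line is equality and the dotted lines 2-fold. At DAP10 no orange point lies outside the dotted lines, while at DAP20 40 lie below the lower line and 4 above the upper line.

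The falls on either side of DAP20 were read separately in each replicate. In the 40 genes more than 2-fold higher in DAP20 replicate 1, the median level was 32.2 and 32.0 CPM in the DAP10 libraries, 13 and 2.51 at DAP20, then 1.32 and 1.30 at DAP30. Within replicate 1 their median fall was 2.70-fold from DAP10 to DAP20 and 7.29-fold from DAP20 to DAP30. Within replicate 2 it was 11.4-fold and then 2.52-fold. In the 62 genes whose DAP20 libraries lay within 2-fold, the median falls were 3.27 and 3.12 in replicate 1 and 3.49 and 3.02 in replicate 2. The split into these sets used the DAP20 libraries and so fixes the direction of this contrast between the replicates. For the 40 genes, the relative size of the second and last falls thus depends on which DAP20 library is read.

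The widest DAP20 gap of all was that of Lus10007732.g.BGIv1.0, a gene named here after its values were seen. It was at 1069 and 1309 CPM in the DAP5 libraries, 466 and 449 at DAP10, 179 and 0.103 at DAP20, then 0 and 0.0603 at DAP30. It was the second highest member per kilobase at DAP5, with 631 RPKM, and it had 1 count in all at DAP30. In replicate 2 it was already lost at DAP20. The fall in summed counts from DAP20 to DAP30 was 3612-fold (95% interval 648 to 142698, exact binomial, counting error only) and rests on replicate 1. Here too the interval leaves out the gap between the DAP20 libraries.

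Deep losses at DAP30 and the DAP20 gap overlapped. In 26 genes the fall from DAP20 to DAP30 was above 8-fold, and 17 of these were more than 2-fold higher in DAP20 replicate 1. Of the 80 genes with a last fall of 2 to 8-fold, 23 were. Both measures contain the DAP20 libraries, so they are not independent. The 26 genes had a median stage mean of 120 CPM at DAP5, 38.6 at DAP10, then 9.81 at DAP20 and 0.208 at DAP30. The 80 had 78.1, 29.2, 9.33 and 2.89 CPM. The sets were divided by the ratio of DAP20 to DAP30, which fixes their difference at DAP30 relative to DAP20.

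The 2 members with no count at DAP30, also named after their values were seen, are Lus10028471.g.BGIv1.0 and Lus10005964.g.BGIv1.0. The former was at 182 and 131 CPM in the DAP5 libraries, 71.2 and 65.8 at DAP10, and 12.5 and 10.4 at DAP20. Its fall from DAP20 was at least 145-fold, and that of Lus10005964.g.BGIv1.0 at least 58.8-fold, both from counts summed over the libraries of a stage. At DAP20 Lus10005964.g.BGIv1.0 was at 7.55 and 1.38 CPM, from 168 and 27 counts, so its bound rests largely on replicate 1. These bounds take 3 counts over both DAP30 libraries, or 0.0794 CPM, as the floor.

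The decline was also read replicate by replicate, as a description, since both replicates entered the means that chose the genes. In the replicate 1 libraries alone all 106 fell at every step, and 81 fell at least 2-fold each time. In the replicate 2 libraries alone all 106 fell in the first 2 steps. From DAP20 to DAP30 100 fell and 6 rose, and 72 fell at least 2-fold at all 3 steps. The complete rule was met by 73 of the genes in replicate 1 alone, by 52 in replicate 2 alone, and by 35 in both.

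A choice made on 1 replicate could be followed in the libraries it had not used. The rule applied to the replicate 1 libraries took 134 genes, and 68 of these (50.7%) fell at least 2-fold at each step in replicate 2. Of all 4813 Lus genes with at least 50 CPM in DAP5 replicate 1, 256 (5.32%) did so. The rule applied to the replicate 2 libraries took 81 genes, of which 43 (53.1%) fell at least 2-fold at each step in replicate 1, against 5.60% of 4932 well-expressed genes. By step, the 134 genes fell at least 2-fold in replicate 2 in 70.9%, 97.0% and 71.6% of cases, and the 81 genes in replicate 1 in 86.4%, 74.1% and 82.7%. These are descriptions with 1 library per stage, and no test was made.

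The deposited gene length, which the choice did not use, was close to that of other well-expressed genes. Its median was 2393 bases in the 106 genes, with quartiles of 1620 and 3564. In the other 4776 well-expressed Lus genes the median was 2380 bases, with quartiles of 1575 and 3758. Over all Lus genes the median was 1610 bases. Within the group, Spearman's rho between length and the log2 fall was 0.02, -0.10 and -0.15 at the 3 steps, over 106, 106 and 104 genes. The definition of this length is not stated in the labels or the file.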

How the data were processed

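The authors deposited 1 table of raw read counts per gene for 8 libraries, with a gene length of unstated definition. Per the labels' protocols, TRIzol RNA and a NEBNext Ultra kit were used. Aligner, counter, genome build and strand setting are not stated there, so reads shared by near-identical or overlapping genes could not be recognised. Columns were matched to samples by the library code in the labels. Levels are CPM on library totals, and RPKM divides CPM by the length in kilobases.

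The table was analysed with Python 3.11.15, R 4.3.3 and edgeR 4.0.16. Of 40518 rows, filterByExpr (minimum count 10, minimum total 15) kept 28749, all 106 members among them. All 8 libraries entered 1 TMM-scaled quasi-likelihood fit with a term for stage alone and Benjamini-Hochberg adjustment, tested on simulated data. Replicates differed beyond counting noise (lowest chi-square over degrees of freedom 18.7). With 2 libraries per stage, n = 2 limits the precision of every value. Alternatives were library totals, other filters, DESeq2 1.42.0, limma-voom 3.58.1, a replicate block, and leaving out each library.

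The members and lists were chosen with earlier results of these data known. Named genes were the 2 members highest at DAP5, the 2 with the largest DAP20/DAP30 ratio and at least 3 counts at DAP30, the 2 highest at DAP30, and the 2 with the widest replicate ratio. Gene lists by function could not be used, since the table names no genes.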

Additional observations from a re-analysis of the deposited data

How the results depend on the processing

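The number of genes meeting the rule was 106 as reported, 46 on TMM levels, 318 with every ratio at least 1.5, 18 with every ratio at least 3, 259 with no upper limit of 8, 242 and 44 with DAP5 limits of 20 and 100 CPM, and 38 when each library had to be 2 times both of the next stage. The limits themselves set most of these counts. The group's share of counts under TMM was 1.23% at DAP5, 0.526% at DAP10 and 0.0486% at DAP30, and its median log2 fall from DAP5 to DAP10 was 1.12. Genes chosen on replicate 1 that fell at each step in replicate 2 numbered 27 of 54 under TMM and 106 of 134 at 1.5-fold, and the opposite choice gave 14 of 27 and 65 of 81. The share over all well-expressed genes was not taken for these versions, so nothing is read from them. With every library kept, another 52 values stayed within their limits, which were wide for the counts of calls. Members called lower from DAP5 to DAP10 were 64 as reported, 79 with DESeq2, 84 with limma-voom and 85 on library totals. From DAP10 to DAP20 they were 87, 91, 91 and 94 in the same order, and from DAP20 to DAP30 95, 97, 68 and 95. The share of all genes called was taken for the reported fit alone, so nothing is read about the members from the other counts. Since only 106 genes passed, the cap of 200 had no effect. With each library left out in turn, members called lower ran from 13 to 98, 58 to 97 and 61 to 100 over the 3 steps, 104 to 106 over the span, and 100 to 106 in the joint test. Genes meeting the rule ran from 80 to 120, with 80 without DAP20 replicate 1, 66 of them members. The share of counts ran from 1.64% to 1.85%, 0.569% to 0.58%, 0.114% to 0.186% and 0.0362% to 0.0392%, and the median log2 falls from 1.43 to 1.53, 1.68 to 2.20 and 1.5 to 2.16. Fitted log2 changes on TMM turned from DAP10 to DAP20 without DAP20 replicate 2 in Lus10018122.g.BGIv1.0 (0.04, against -2.74 without replicate 1) and Lus10009015.g.BGIv1.0 (0.21, against -3.88). On library totals DAP20 replicate 1 still lay below the DAP10 mean in both, at 60.7 against 76.3 CPM and 74.0 against 82.8 CPM. In Lus10039075.g.BGIv1.0 the fitted change from DAP20 to DAP30 turned without DAP20 replicate 1 (0.97, against -2.61 without replicate 2). The cause was not tested. The replicate numbers share no stated source, and deviations correlated between stages at -0.05 to 0.16, above 0.1 in 2 of 6 pairs. With the replicate block, 61, 89 and 94 members were called lower over the 3 steps, and 106 over the span, again without a share over all genes. Relative counting error is widest at DAP30, where the median member had 83 counts over both libraries.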

Other observations

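Of the 2212 gene models added by the authors, which the choice by Lus ID left out, 1 met the same limits. Linumusitatissimum_newGene_3059 was at 313 and 342 CPM in the DAP5 libraries, 98.2 and 97.6 at DAP10, 27.8 and 38.9 at DAP20, then 13.2 and 9.35 at DAP30. Its stages did not overlap, and at DAP20 it was higher in replicate 2, unlike 84 of the 106 genes.

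Within the replicate 2 libraries, 6 of the 106 genes stood lower at DAP20 than at DAP30. Without DAP20 replicate 1, the fitted edgeR log2 fold change from DAP20 to DAP30 was 0.97 in Lus10039075.g.BGIv1.0 and 0.85 in Lus10041031.g.BGIv1.0, the latter named after its values were seen. These values rest on 1 DAP20 library, which stood far below the one left out. Lus10041031.g.BGIv1.0 was at 49.7 and 63.8 CPM in the DAP5 libraries, 27.3 and 25.2 at DAP10, 13.1 and 2.21 at DAP20, then 3.77 and 3.74 at DAP30.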
